A study of Mus musculus with 2 samples.

Results

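The genes described here are 10 genes of the crypt, the gland at the base of each villus from which the lining of the small intestine is renewed. They are the stem cell genes Lgr5, Ascl2, Olfm4 and Smoc2, the Wnt-responsive genes Axin2, Sox9 and Cd44, and the Notch genes Notch1, Hes1 and Atoh1. They were chosen by name, and every probeset annotated to 1 of them was taken, which gave 21 probesets of 45037 and 10 of the 18194 genes named alone by a probeset. A probeset is a group of short probes on the array that together read a transcript. The EPA&DHA group was 12 male C57BL/6J mice, an inbred strain, aged 4 months and fed for 4 weeks a semisynthetic diet with 20% fat by weight, in which 44% of the lipids were a concentrate holding 6% EPA and 51% DHA, the long chain n-3 fatty acids of fish oil. The control group of 12 mice differed only in the fat, which was all flaxseed oil, rich in the shorter n-3 fatty acid ALA. RNA of 11 EPA&DHA mice and of 10 control mice was combined into 1 pool per diet, and every pool was read on a single Affymetrix mouse array. The labels describe whole small intestine, whereas the methods describe scraped epithelial cells, so the share of crypts and of the wall beneath them in the RNA is not known.

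Stem cells at the crypt base divide throughout life, and their daughters become either absorptive enterocytes or secretory cells. Wnt signals, amplified by R-spondins that bind Lgr receptors, keep these cells in the stem cell state and induce genes such as Axin2, Ascl2 and Sox9. Notch, a receptor activated by Delta and Jagged ligands on the neighbouring cell, induces the repressor Hes1, which holds down Atoh1, the factor that commits a cell to the secretory fate.

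With 1 array per diet there was no replicate, so the variation between mice is unknown and no statistical test was possible. Each value is the signal of 1 pool, the log2 ratio is that of EPA&DHA over control, and "higher" and "lower" describe these 2 arrays. A probeset was kept when the mean signal of both arrays, averaged on the log2 scale, was at least 50 (24461 of 45037), and a gene was represented by its kept probeset of highest mean that names it alone, called its brightest, which covered 11756 genes. The local SD is the robust SD of the log2 ratios of the 500 kept probesets nearest in mean signal, the gene's own included, and it describes the spread between these arrays at that brightness, not the error of a gene. It widens as signals become dimmer, and was 0.62 over the 6115 kept probesets of lowest signal and 0.24 over the 6115 of highest signal. The median log2 ratio over all genes was -0.05. For RNA quality, 3'-end over 5'-end signal, which increases with degradation, was 0.793 on the EPA&DHA array and 0.932 on the control array for Gapdh, and 1.16 on the EPA&DHA array and 1.22 on the control array for Actb.

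Of the 10 genes, 2 (Sox9 and Olfm4) were higher on EPA&DHA by 1.5-fold or more, beside 6.24% of all genes measured. Axin2 alone was lower by 1.5-fold or more, beside 8.02% of all genes, and the other 7 lay within 1.5-fold. In a list of 10 each gene counts for 10%, so these shares are coarse. The 3 genes past 1.5-fold did not share a direction. The median log2 ratio of the 10 genes was -0.06, beside the -0.05 of all genes, with 5 genes above 0 and 5 below. With the kept probesets of each gene averaged, this median was 0.45, beside -0.04 for all genes. None of the 10 reached 2-fold, which 1.61% of all genes did upwards and 2.26% downwards. Lower RNA per cell and fewer cells of a type cannot be told apart in such pools.

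**Figure D1:**
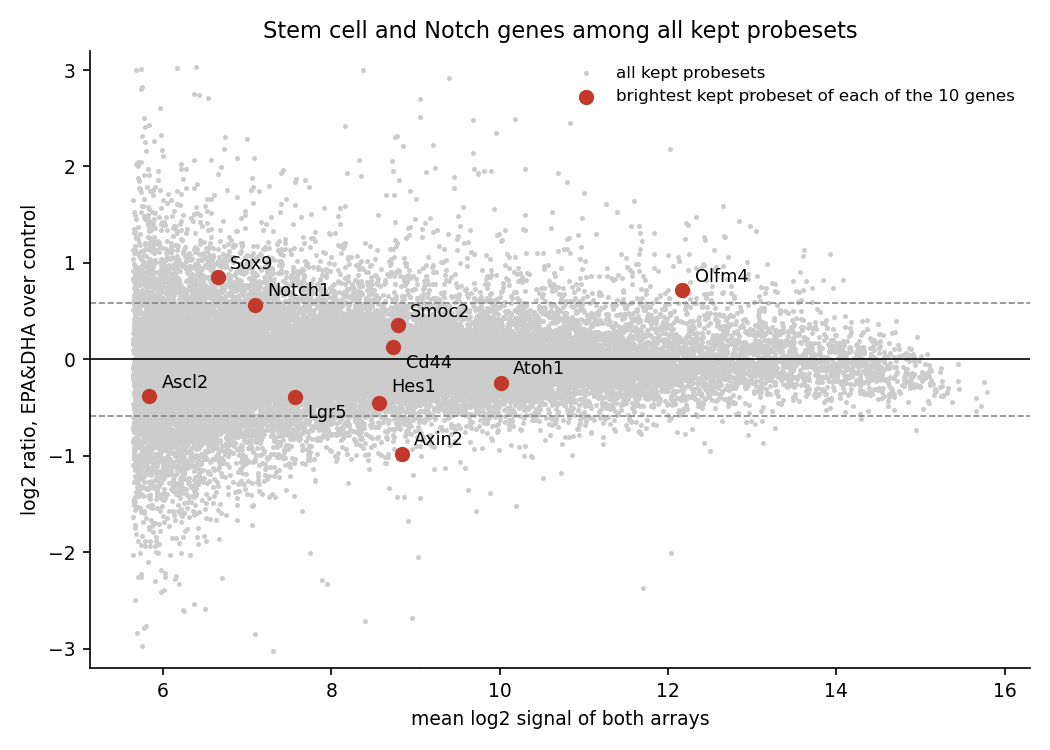
Log2 ratio of EPA&DHA over control (y axis) against the mean log2 signal of both arrays (x axis) for all 24461 kept probesets (grey) and for the brightest kept probeset of each of the 10 genes (red). Dashed lines mark 1.5-fold, and 7 grey probesets lie beyond the y axis. Olfm4, Sox9 and Axin2 lie past the dashed lines and towards the edge of the grey cloud at their brightness, and the cloud is wider at the brightness of Sox9.

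All 10 genes had at least 1 kept probeset, and 18 of their 21 probesets were kept. Counted by probeset, 6 of the 18 were higher by 1.5-fold or more, beside 8.11% of all kept probesets, and 1 was lower by as much, beside 9.01%. At 2-fold the counts were 3 higher, beside 2.31%, and 0 lower, beside 2.63%. The 3 were probesets of Ascl2, Notch1 and Lgr5, and those of Ascl2 and Lgr5 had control signals under 50, at 24.2 and 45.6. All 3 were dim, where ratios spread most, whereas the shares cover probesets of every brightness. The 6 belonged to 6 different genes, and 4 of them were not the brightest probeset of their gene. Several probesets were kept for 6 genes, and they lay on the same side of 0 for Smoc2, Sox9 and Notch1, and on both sides for Lgr5, Ascl2 and Cd44. Among all 5350 genes with several kept probesets, 45.6% had them on the same side, and the log2 ratios of the brightest and second brightest differed by an SD of 0.53.

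**Figure D2:**
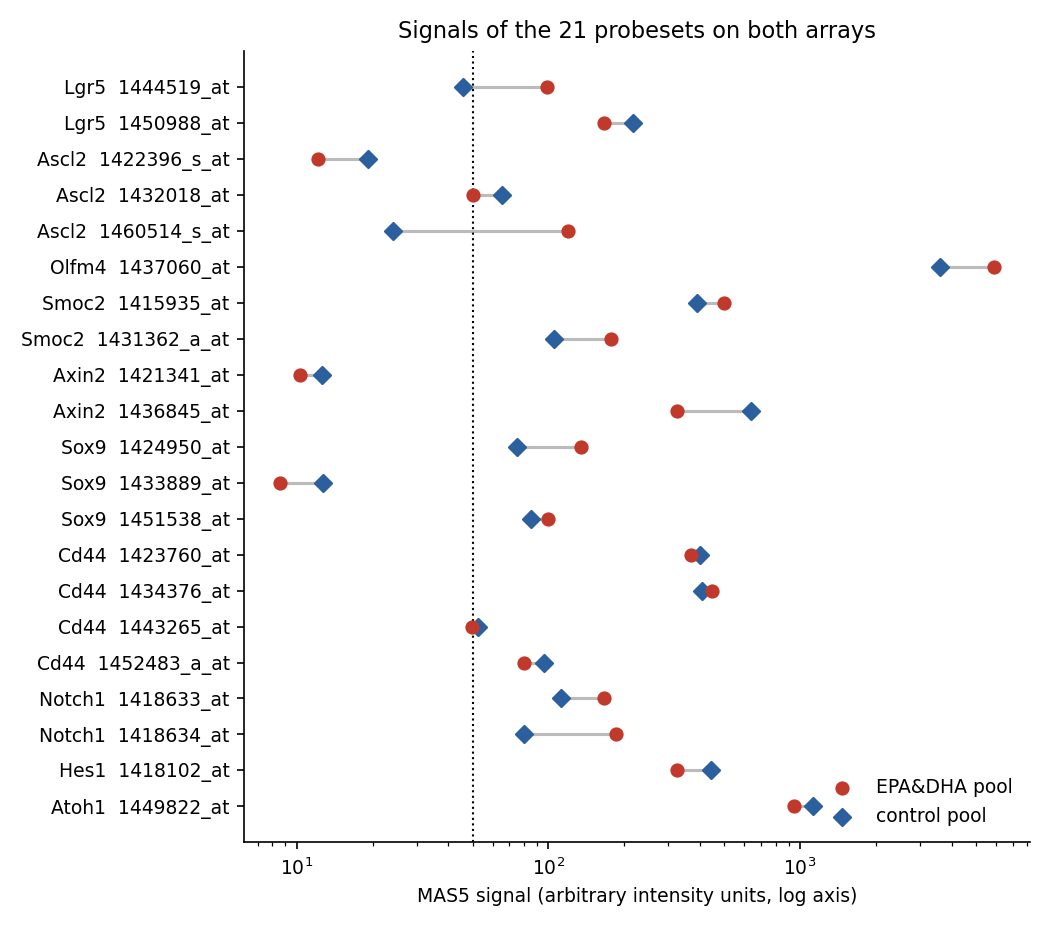
MAS5 signal (x axis, log scale, arbitrary intensity units) of each of the 21 probesets on the EPA&DHA array (red circles) and on the control array (blue diamonds), joined by a grey line. The dotted line marks a signal of 50. The pair of Olfm4 lies far to the right with EPA&DHA above control, that of the kept Axin2 probeset has EPA&DHA below control, and the 3 probesets that were not kept lie at signals from 8.57 to 19.1.

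The promoters of Olfm4 and Axin2, the genes past 1.5-fold whose log2 ratio lay more than 2 local SDs from 0, and of Atoh1, the gene on which Notch and secretory fate meet, are given as reference sequence from RefSeq on the GRCm38.p6 build, each with 250 bases before the annotated start and 50 after it. Capitals mark the core TGGGAA of sites for RBPJ, the DNA-binding partner of Notch, and the site CTTTGAT of the TCF/LEF factors, through which Wnt acts, both searched on either strand.
Olfm4 (chr14:80000052-80000351, plus strand): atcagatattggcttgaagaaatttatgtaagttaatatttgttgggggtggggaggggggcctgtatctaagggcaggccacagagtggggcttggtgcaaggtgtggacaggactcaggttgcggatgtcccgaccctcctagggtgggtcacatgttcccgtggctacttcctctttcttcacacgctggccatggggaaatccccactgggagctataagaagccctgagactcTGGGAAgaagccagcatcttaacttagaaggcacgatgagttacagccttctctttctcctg
Axin2 (chr11:108920099-108920398, plus strand): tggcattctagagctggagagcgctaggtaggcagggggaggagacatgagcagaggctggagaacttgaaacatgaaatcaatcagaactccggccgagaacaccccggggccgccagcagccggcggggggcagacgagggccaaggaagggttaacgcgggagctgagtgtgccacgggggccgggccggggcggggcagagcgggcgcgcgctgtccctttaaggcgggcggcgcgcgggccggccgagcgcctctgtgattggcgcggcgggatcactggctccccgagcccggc
Atoh1 (chr6:64728875-64729174, plus strand): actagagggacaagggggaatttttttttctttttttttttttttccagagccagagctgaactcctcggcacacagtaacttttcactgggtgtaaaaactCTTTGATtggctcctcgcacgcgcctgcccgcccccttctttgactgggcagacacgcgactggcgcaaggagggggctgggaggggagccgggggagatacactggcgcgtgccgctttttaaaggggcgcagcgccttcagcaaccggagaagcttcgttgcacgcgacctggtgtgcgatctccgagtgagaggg
Olfm4 held TGGGAA with its first base 12 bases before the start, and Atoh1 held CTTTGAT with its first base 148 bases before the start, while the Axin2 window held neither. Of the 6 genes with an entry in the promoter table (Olfm4, Axin2, Atoh1, Ascl2, Cd44 and Notch1), TGGGAA occurred in Olfm4 and Cd44, beside 25.6% of all 32851 promoter windows of this length. CTTTGAT occurred in Atoh1 alone, beside 3.73% of all windows, and the related site CTTTGAA in none of the 6, beside 5.14%. The N-box CACNAG, a site bound by Hes1, occurred in Notch1, Atoh1 and Ascl2, beside 42.5% of all windows, with 2 of the matches in Notch1 overlapping each other. The E-box CAGCTG, a site of bHLH factors such as Atoh1 and Ascl2, occurred in none of the 6, beside 16.3%. No match of 1 motif overlapped one of another. A match of letters is a description and no evidence of binding. Lgr5, Smoc2, Sox9 and Hes1 were not searched.

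Among the stem cell genes, Olfm4 was past 1.5-fold on its only probeset and Smoc2 was higher by less. Lgr5 and Ascl2 gave opposite values on their probesets. Olfm4 encodes olfactomedin 4, a secreted glycoprotein made in large amounts by crypt base stem cells. Its probeset had a signal of 5903 on EPA&DHA and 3587 on control, 1.65-fold higher, a log2 ratio of 0.72 with a local SD of 0.23. Of the 500 probesets nearest in signal, 17 had a higher ratio. Smoc2, a secreted calcium-binding protein of the matrix that also marks these cells, had signals of 500.4 on EPA&DHA and 390.7 on control, a log2 ratio of 0.36 with a local SD of 0.34. Its dimmer probeset had 177.6 on EPA&DHA and 105.4 on control, a log2 ratio of 0.75 with a local SD of 0.49. Both probesets of Smoc2 lay above 0, and only the dimmer of them was past 1.5-fold.

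Lgr5, the R-spondin receptor that defines crypt base stem cells, gave opposite values on its probesets. The brighter had a signal of 165.7 on EPA&DHA and 217.2 on control, a log2 ratio of -0.39 with a local SD of 0.41, within the spread of probesets of like signal. The dimmer had 98.96 on EPA&DHA and 45.6 on control, a log2 ratio of 1.12 with a local SD of 0.61, and 14 of its 500 neighbours had a higher ratio. These probesets were 1.51 apart on the log2 scale, so the arrays give no direction for Lgr5.

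Ascl2, a bHLH transcription factor that Wnt induces and that stem cells need, was dim and likewise divided. Its brightest probeset had a signal of 50.1 on EPA&DHA and 65.3 on control, a log2 ratio of -0.38 with a local SD of 0.78. The other kept probeset, whose suffix s marks probes that can bind several transcripts, had 120.1 on EPA&DHA and 24.2 on control, 4.97-fold higher with a log2 ratio of 2.31 and a local SD of 0.66. This was the largest ratio of the 21 probesets, and 5 of its 500 neighbours were higher. Its plain mean signal exceeds that of the first, and it ranks second because means were taken on the log2 scale. Its control signal was under 50, and the difference between the kept probesets of Ascl2 was 2.70 on the log2 scale. The third probeset, also of suffix s, was not kept, with 12.2 on EPA&DHA and 19.1 on control.

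**Figure D3:**
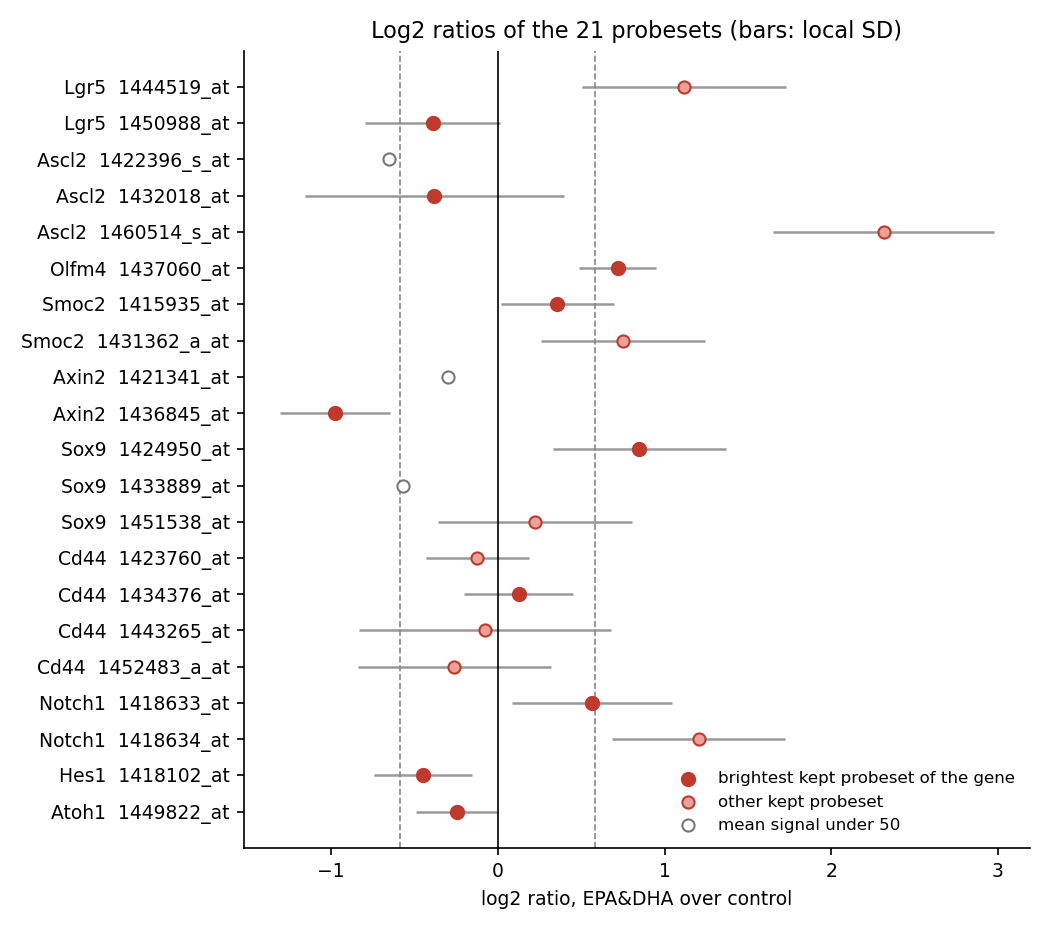
Log2 ratio of EPA&DHA over control (x axis) for each of the 21 probesets, with bars of 1 local SD on either side for kept probesets. Filled red circles are the brightest kept probeset of a gene, pale circles other kept probesets, open circles probesets with a mean signal under 50, and dashed lines mark 1.5-fold. Lgr5 and Ascl2 each have kept probesets far apart on both sides of 0, whereas the 4 probesets of Cd44 stay between -0.26 and 0.13.

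The Wnt-responsive genes went different ways. Axin2, a scaffold of the complex that destroys beta-catenin and a feedback gene induced wherever Wnt signalling is active, had a signal of 325.2 on EPA&DHA and 640.8 on control. It was 1.97-fold lower on EPA&DHA, a log2 ratio of -0.98 with a local SD of 0.33, and 3 of its 500 neighbours had a lower ratio. The other probeset of Axin2 was not kept, with signals of 10.3 on EPA&DHA and 12.6 on control, so the difference rests on 1 probeset.

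Sox9, a transcription factor of stem cells and progenitors that Paneth cells also need, had a signal of 134.6 on EPA&DHA and 74.7 on control, 1.80-fold higher. Its log2 ratio was 0.85, the local SD 0.52, and 16 of its 500 neighbours had a higher ratio. Its second kept probeset had 99.2 on EPA&DHA and 85.2 on control, a log2 ratio of 0.22 with a local SD of 0.58. The mean of both log2 ratios was 0.53, under 1.5-fold. The third probeset of Sox9 was not kept, with 8.57 on EPA&DHA and 12.7 on control.

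Cd44, a hyaluronan receptor of crypt cells that leukocytes also carry, differed little on any of its 4 kept probesets. The brightest had 444.8 on EPA&DHA and 407.8 on control, and the next had 367.8 on EPA&DHA and 401.0 on control. Their log2 ratios were 0.13 and -0.12, and those of the dimmer ones were -0.26 and -0.08, all within 1 local SD.

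In the Notch group the receptor lay above 0 and Hes1 and Atoh1 below it. Notch1, a receptor of crypt cells that T cells and endothelium also carry, had a signal of 165.5 on EPA&DHA and 111.9 on control on its brightest probeset, just under 1.5-fold higher, a log2 ratio of 0.56 with a local SD of 0.48. Its other probeset had 185.0 on EPA&DHA and 80.2 on control, 2.31-fold higher, a log2 ratio of 1.21 with a local SD of 0.52, and 8 of its 500 neighbours had a higher ratio. The mean of both was 0.89, and Notch1 passed 1.5-fold on its brightest probeset too after median centring, quantile normalization or a loess correction. Hes1, the repressor that Notch induces, had 323.9 on EPA&DHA and 442.5 on control, a log2 ratio of -0.45 with a local SD of 0.29, and 37 of its 500 neighbours were lower. Atoh1 had 949.8 on EPA&DHA and 1124.0 on control, a log2 ratio of -0.24 with a local SD of 0.25. Neither Hes1 nor Atoh1, each read by 1 probeset, reached 1.5-fold, and both had the same sign.

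The further genes of these pathways came from lists of general knowledge. Counts past 1.5-fold in these lists are to be set against the 6.24% of all genes that were higher and the 8.02% that were lower. Of 20 further stem cell markers, 19 were measured, 2 passed 1.5-fold upwards and 1 downwards, with a median log2 ratio of 0.00. The higher ones were Tert, the catalytic subunit of telomerase, with signals of 79.3 on EPA&DHA and 42.8 on control, and the RNA-binding protein Msi1 with 68.0 on EPA&DHA and 39.9 on control. The lower one was the urea transporter Slc14a1, with 44.9 on EPA&DHA and 68.0 on control. All 3 were dim, and each had a local SD of at least 0.67. The 2 higher calls became 0 with an offset of 50 or a filter at 100, and the lower call became 0 with median centring, quantile normalization, loess, either offset or a filter at 100. The median of the list became 0.14 with averaged probesets. Other kept probesets reached 0.72 for Slc12a2, -0.76 and 0.72 for Aqp4, and -0.84 for Rgmb.

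Of 35 Wnt ligands, receptors and regulators, 25 were measured, 0 passed 1.5-fold upwards and 3 downwards, with a median of -0.15. Lgr4, the R-spondin receptor found throughout the crypt, had a signal of 2495 on EPA&DHA and 4169 on control, a log2 ratio of -0.74 with a local SD of 0.23. The other 2 were dimmer, the secreted Wnt modulator Dkk3 with 40.3 on EPA&DHA and 64.2 on control, and the signal transducer Dvl2 with 56.4 on EPA&DHA and 89.0 on control. The transducer beta-catenin, Ctnnb1, was at -0.15 and its partner Tcf7l2 at -0.20, although the 4 probesets of Tcf7l2 ran from -0.51 to 0.29. Gsk3b was at -0.10 on its brightest probeset and reached -0.76 on another. The crypt ligand Wnt3 and the R-spondins Rspo1 and Rspo3 were under the filter, with no probeset above a signal of 50 on either array.

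Of 19 further Wnt target genes, among them Lgr4, Znrf3 and Rnf43 of the list before, 13 were measured, 0 passed 1.5-fold upwards and 2 downwards, with a median of 0.00. Lgr4 was 1 of the 2. The other was Nkd1, a feedback inhibitor of Wnt signalling like Axin2, with 53.5 on EPA&DHA and 108.6 on control, a log2 ratio of -1.02 with a local SD of 0.58 and of -0.58 on its other kept probeset. Other feedback genes lay on both sides. Znrf3 and Rnf43, ubiquitin ligases that remove Wnt receptors, had log2 ratios of 0.54 and -0.16. Myc and Ccnd1, which drive the cell cycle, had 0.44 and -0.20, with another probeset of Ccnd1 at 0.04.

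Of 33 Notch ligands, receptors and processing genes, 27 were measured, 0 passed 1.5-fold upwards and 3 downwards, with a median of -0.06. Numbl, related to the Notch inhibitor Numb, had 42.0 on EPA&DHA and 124.9 on control, a log2 ratio of -1.57 with a local SD of 0.60. Lfng, a glycosyltransferase that modifies Notch, had 52.6 on EPA&DHA and 129.6 on control, a log2 ratio of -1.30 with a local SD of 0.64. The ligand Jag2 had 75.2 on EPA&DHA and 135.5 on control, a log2 ratio of -0.85. All 3 were read by 1 dim kept probeset each. The crypt ligands Dll1 and Dll4 had log2 ratios of -0.17 and -0.29, Adam10, the protease that cuts the activated receptor, 0.43, and Rbpj 0.01. Further probesets of Adam10 and Rbpj reached -0.12 and -0.38. Other kept probesets past 1.5-fold went both ways, with Aph1b at 1.39 and Jag1 at 0.65, and Psen2, Dtx2 and Notch2 at -1.19, -1.07 and -0.74.

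Of 12 further Notch target genes, 9 were measured and 0 were past 1.5-fold in either direction, with a median of 0.03. They ran from -0.51 for Hes5, a repressor related to Hes1, to 0.44 for Myc. Of 18 secretory fate factors, 14 were measured, 1 passed 1.5-fold upwards and 0 downwards, with a median of -0.0012. The 1 past it was Creb3l1, a transcription factor of secretory cells bound to the endoplasmic reticulum, with 420.8 on EPA&DHA and 204.1 on control, a log2 ratio of 1.04 with a local SD of 0.38. Gfi1 and Spdef, which act after Atoh1, were both at -0.12. Other kept probesets reached -0.73 and 0.60 for Dclk1 and 0.61 for Sox4.

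**Figure D4:**
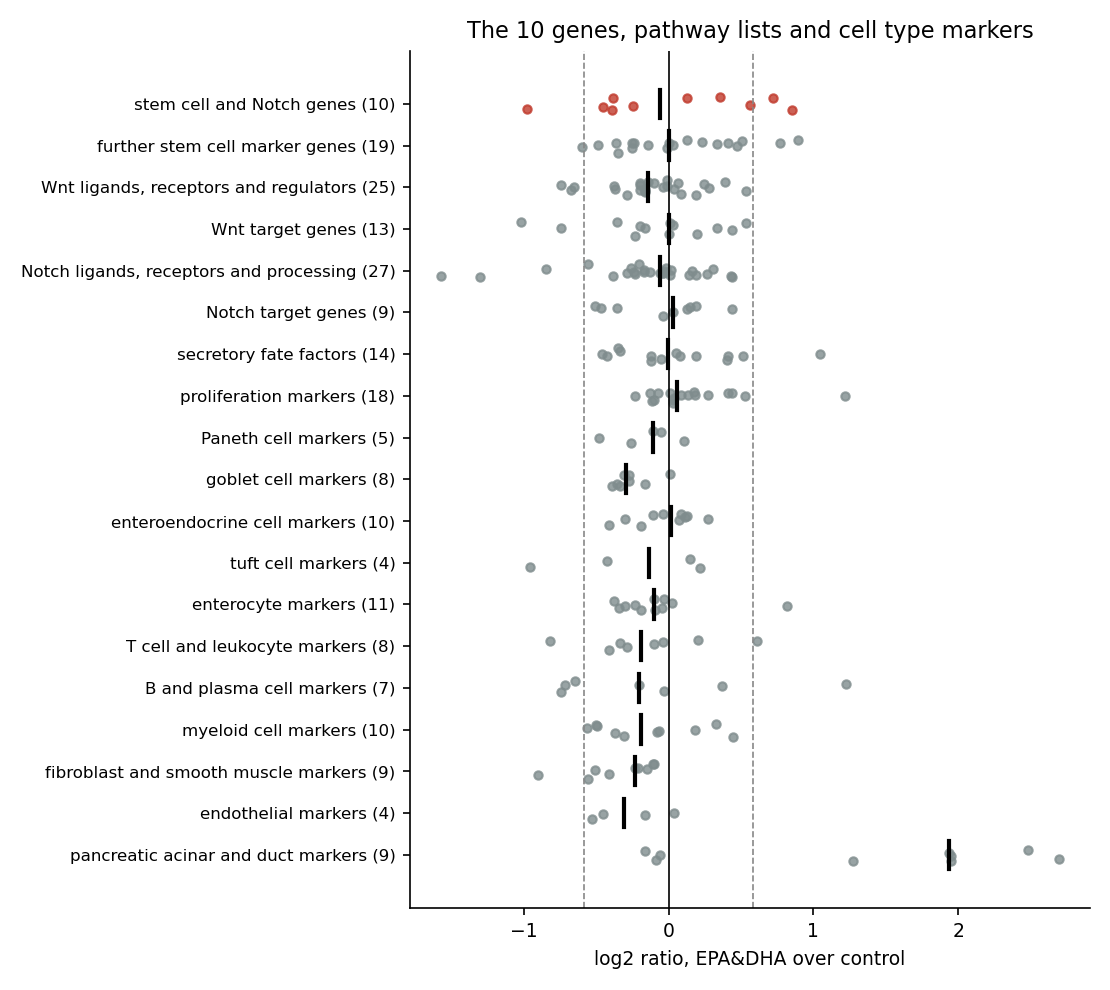
Log2 ratio of EPA&DHA over control (x axis) for the 10 genes (red) and for the measured genes of each further list (grey), with the number of genes in brackets, black bars at the median and dashed lines at 1.5-fold. The 10 genes spread from -0.98 to 0.85 around a median near 0, and the medians of the first 6 further lists lie between -0.15 and 0.03.

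Markers of dividing cells and of the cell types in the sample were read in the same way. Of 20 proliferation markers, 18 were measured and 1 was at least 1.5-fold higher, the mitotic kinase Aurkb with 231.6 on EPA&DHA and 99.4 on control, while 0 were lower, with a median of 0.06. The brightest probeset of Aurkb has the suffix x, which marks probes that can also bind other transcripts, and its other probeset stood at 0.57. Of the 18, 13 lay above 0 and 5 below, among the latter Mki67, which marks dividing cells, with 1425 on EPA&DHA and 1555 on control. Other kept probesets of Mcm7, Top2a, Mcm6 and Mcm4 reached 0.98, 0.89, 0.81 and 0.66. The brightest probesets of these genes stood at 0.27, 0.08, -0.23 and 0.01. The summed signal of the list was 16723 on EPA&DHA and 16607 on control.

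Markers of the cell types that arise from the crypt were taken in turn. None of 5 measured Paneth cell markers of 10 was past 1.5-fold, with a median of -0.11 and values from -0.48 for the antimicrobial Ang4 to 0.11 for the protease Mmp7, and their summed signal was 59363 on EPA&DHA and 72417 on control. A dimmer probeset of Lyz1, the lysozyme of Paneth cells, stood at -1.49. None of 8 goblet cell markers of 9 was past 1.5-fold, with a median of -0.29 and 7 of the 8 below 0, and their summed signal was 152389 on EPA&DHA and 188853 on control. Their values ran from -0.39 for Fcgbp, a mucus protein, to 0.01 for Ern2, a stress sensor of the endoplasmic reticulum. Dimmer probesets of Agr2, which helps mucins to fold, and Clca1, a mucus protein, stood at 1.37 and -0.93. Enterocyte markers, most of them of like brightness, also lay mainly below 0, with 9 below, the lowest Apoa4 at -0.38, and 2 above. The part of brightness in the values of the goblet and Paneth cell markers was not tested. All 10 enteroendocrine markers were measured and 0 were past 1.5-fold, with a median of 0.01, from -0.41 for the hormone Gip to 0.27 for Tph1, which makes serotonin. Of 7 tuft cell markers 4 were measured, with a median of -0.14, and Trpm5, a taste channel, was at least 1.5-fold lower at -0.96, although another of its probesets stood at 0.51. Of 12 enterocyte markers 11 were measured, with a median of -0.10 (0.03 after quantile normalization) and a summed signal of 330275 on EPA&DHA and 378242 on control, and the peptide transporter Slc15a1 was at least 1.5-fold higher at 0.82. Slc5a1 of this list stood at -0.10 on its brightest probeset and at 0.74 on its other kept probeset. The labelled tissue was checked on 3 genes that define enterocytes. Fabp2, a fatty acid binding protein, had 40590 on EPA&DHA and 50059 on control, Vil1, the villin of the brush border, 23996 on EPA&DHA and 24490 on control, and Lct, the enzyme lactase, 24409 on EPA&DHA and 26044 on control.

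Other cells of the sample also carry some of the 10 genes, among them leukocytes (Cd44, Notch1), fibroblasts and smooth muscle (Smoc2), endothelium (Notch1) and pancreatic ducts (Sox9). The T cell and leukocyte list (8 of 11 measured) had a median of -0.19, with 1 gene at least 1.5-fold higher, Cd3e at 0.61, and 1 lower, Cd8a at -0.82 (0.02 on another probeset), and a summed signal of 9605 on EPA&DHA and 11346 on control. The B and plasma cell list (7 of 8 measured) had a median of -0.21, with the plasma cell receptor Tnfrsf17 higher at 1.23, and the B cell genes Ms4a1, Cd79a and Cd79b lower at -0.75, -0.71 and -0.65, and a summed signal of 16094 on EPA&DHA and 13081 on control. Most of that sum was Jchain, the chain that joins secreted antibodies, with 14860 on EPA&DHA and 11507 on control. The myeloid list, 10 of 10 measured, had 0 genes past 1.5-fold and a median of -0.19, from -0.56 for the integrin Itgam to 0.44 for C1qb, whose probesets ran from -0.51 to 0.63, and a summed signal of 6629 on EPA&DHA and 6661 on control. Cd4 and Cd2 of the T cell list were under the filter on low signals.

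All 9 measured genes of 12 in the fibroblast and smooth muscle list lay below 0 on the deposited scale, with a median of -0.23, a summed signal of 2107 on EPA&DHA and 2591 on control, and Dcn (decorin) at least 1.5-fold lower at -0.90. The endothelial list (4 of 8 measured) had 0 genes past 1.5-fold and a median of -0.31, from -0.53 for Cdh5 to 0.03 for Eng, with a summed signal of 437.5 on EPA&DHA and 548.6 on control, and its defining genes Pecam1 and Vwf were under the filter. The pancreatic list (9 of 11 measured) had 6 genes at least 1.5-fold higher and 0 lower, a median of 1.94 and a summed signal of 31358 on EPA&DHA and 24622 on control. The 6 were digestive enzymes of acinar cells, led by Cpb1 at 2.69 and Ctrb1 at 2.48. Krt19, Krt7 and Cftr, which ducts share with the intestinal lining, were at -0.06, -0.09 and -0.16, with another probeset of Cftr at 0.96. Most of the summed signal was Krt19, with 18399 on EPA&DHA and 19208 on control. The part of these cells in the values of Sox9, Notch1, Smoc2 and Cd44 was not tested.

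**Figure D5:**
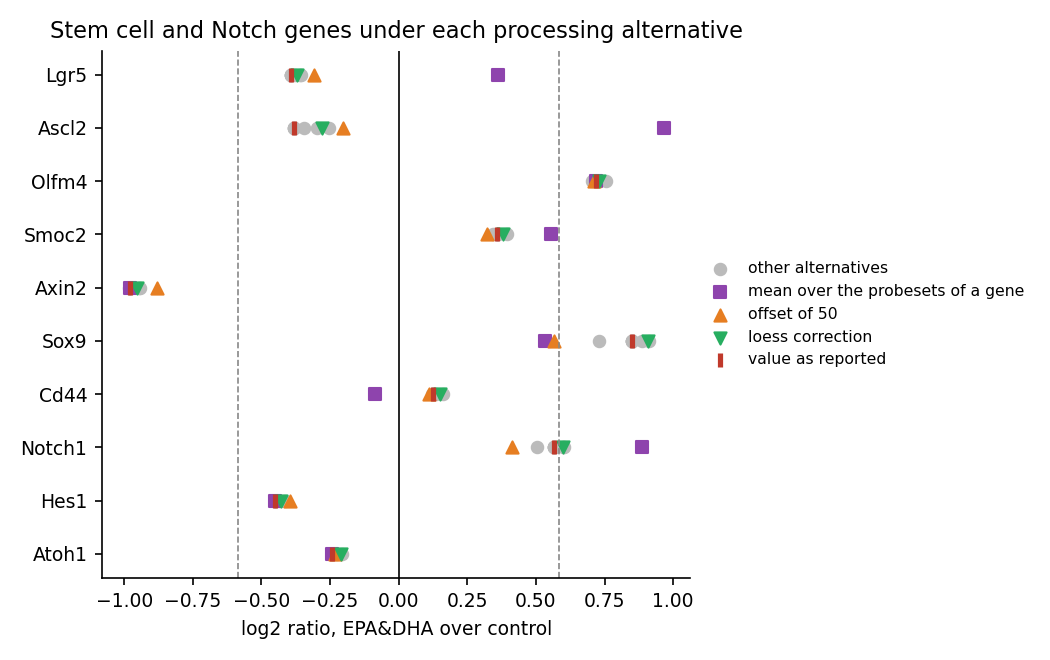
Log2 ratio of EPA&DHA over control (x axis) for each of the 10 genes as reported (red bar) and under each processing alternative, with the mean over probesets, an offset of 50 and the loess correction drawn as their own symbols. Dashed lines mark 1.5-fold. Olfm4, Axin2, Hes1 and Atoh1 hardly move, but each has 1 kept probeset, so averaging or choosing probesets could not move them. Averaging the probesets carries Lgr5 to 0.36 and Ascl2 to 0.97.

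There were 11 alternative ways of scaling, filtering and choosing probesets for each gene, but 10 for Ascl2. Across them Olfm4 kept a log2 ratio from 0.71 to 0.76 and Axin2 from -0.98 to -0.88. Olfm4 and Axin2 have 1 kept probeset each, so averaging probesets or leaving out suffixes x and s could not change their values. Sox9 ranged from 0.53 to 0.91 and Notch1 from 0.41 to 0.89. Lgr5, Ascl2 and Cd44 changed sign when the probesets of a gene were averaged, to 0.36, 0.97 and -0.09.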

How the data were processed

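The authors pooled RNA per diet, hybridized each pool to 1 Affymetrix MOE430_2 array and summarized it with MAS5, the default Affymetrix algorithm. The authors deposited linear probeset intensities. The 2% trimmed mean was the same (500.0) on both arrays, so further scaling to it changed nothing. Of 45101 probesets, 64 controls were set aside, 34945 of the rest named 1 gene, 932 several and 9160 none, by the platform annotation, whose symbols needed no update. Detection calls and change p-values were not used here.

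A probeset was kept at a mean signal, averaged as log2, of at least 50. Counts were made at 1.5-fold and 2-fold, and a gene took its brightest kept probeset. Further lists were written from general knowledge. From each, genes past 1.5-fold were named (at most 2 each way where more than 4 passed), otherwise the highest and lowest, with a few others named after their values were seen. The 10 genes and the lists were chosen with earlier results of these data known.

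Alternatives were no further scaling, median centring, quantile normalization, loess (span 0.3), offsets of 16 or 50, no filter, filters at 25 or 100, averaged probesets, and probesets without suffix x or s. The calculation of ratios was run on simulated arrays with planted ratios, which checks the arithmetic and says nothing on the values of these 2 arrays. Ratios were computed with pandas 2.3.3 and numpy 2.4.6 under Python 3.11.15, loess with statsmodels 0.14.6, and plots with matplotlib 3.10.9.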

Additional observations from a re-analysis of the deposited data

How the results depend on the processing

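The 2 genes at least 1.5-fold higher became 1 (Olfm4) with an offset of 50, 0 at 2-fold and 6 when all kept probesets were counted. They were 2 or 3 under all other alternatives run, but not always the same genes. With averaged probesets the 3 were Ascl2 at 0.97, Notch1 at 0.89 and Olfm4 at 0.72, and Sox9 was under 1.5-fold at 0.53. The 1 gene at least 1.5-fold lower (Axin2) became 0 at 2-fold and stayed 1 under every other alternative. Axin2 has 1 kept probeset, so averaging could not change its value. The median log2 ratio of the 10 genes, -0.06 as reported, was 0.13 with a filter at 100, which left out Ascl2, and 0.45 with averaged probesets. The median of all genes was -0.04 under either alternative. Over all 11756 genes, 734 (6.24%) were at least 1.5-fold higher and 943 (8.02%) lower. With an offset of 50 these counts were 413 (3.51%) and 483 (4.11%). Without a filter they were 2633 (14.5%) and 3552 (19.5%) of 18193 genes. With a filter at 25 they were 1189 (8.54%) and 1715 (12.3%) of 13925 genes. With a filter at 100 they were 467 (4.77%) and 468 (4.78%) of 9789 genes. The list counts that follow are to be set against the share of all genes under the same alternative. Of the further lists, the 3 lower Wnt regulators became 1 with quantile normalization, loess, either offset or a filter at 100, and 6 without a filter. The 3 lower Notch ligands, receptors and processing genes became 1 with a filter at 100, and the 2 lower Wnt targets became 4 without a filter or with one at 25, and 1 with one at 100. The causes were not tested. No paired analysis was possible because each diet had 1 array. Dim signals limit Ascl2, Sox9, Notch1 and the second probeset of Lgr5.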
